A study of Arabidopsis thaliana with 24 samples.

Results

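The 47 genes described here are nuclear genes for parts of the photosynthetic apparatus, taken by gene identifier from a table of 27416 genes. They comprise 6 antenna genes of photosystem I (LHCA1 to LHCA6), 15 antenna genes of photosystem II (LHCB1 to LHCB7, with several copies of LHCB1, LHCB2 and LHCB4), 12 subunits of photosystem I (PSA), 10 subunits of photosystem II (PSB) and the 4 genes of the RuBisCO small subunit (RBCS). All 47 passed the filter on low counts and were tested together with the other genes, 20109 in all. The lowest count of any member in a library was 23, for LHCB7.

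Messenger RNA was sequenced from whole Arabidopsis thaliana seedlings of 2 genotypes, the wild type Col-0 and jaz9-1, whose JAZ9 gene, for a repressor of jasmonate signalling, carries a T-DNA (line SALK_004872). Seedlings 6 days old were kept for 8 h in medium without compound (mock), with 2 (coronatine, a bacterial mimic of the jasmonate hormone), with 2e (a stereoisomer of 2) or with 12, a derivative known here by its code only, each compound at 1 µM according to the series text. Each of the 8 groups held 3 libraries, and each library was a pool of 5 to 8 seedlings. The compounds were compared with mock to ask which genes they change, and the genotypes to ask what depends on JAZ9.

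The jaz9-1 line was 1 insertion line, so any other difference between it and Col-0 cannot be told apart from the insertion. JAZ9 itself was lower in jaz9-1 than in Col-0 with every compound: it lay between 168.5 and 185.2 CPM (counts relative to library size) with 2 in Col-0 and between 37.41 and 52.12 in jaz9-1, while with mock the libraries overlapped (3.006 to 4.909 and 2.206 to 3.619). Library totals ran from 6226126 to 29404141 counts. The normalization factors ran from 0.8446 to 1.083, and the 6 libraries with 2 had the 6 lowest. The 3 libraries of a group measure the spread between pools, since sowing and batch are not in the labels. In whole seedlings, fewer green cells and less RNA per green cell cannot be told apart.

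Light is collected by chlorophyll proteins of the antenna, which pass its energy to the reaction centres of photosystems I and II. The reaction centre proteins themselves are encoded in the plastid, while the antenna proteins, many smaller subunits and the small subunit of RuBisCO, the enzyme that fixes carbon dioxide, are encoded in the nucleus and imported. Jasmonates and their mimic coronatine are known to lower photosynthesis genes and chlorophyll in leaves during longer treatments, and light, the circadian clock and GLK transcription factors are known to control the nuclear genes.

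Together the 47 genes took between 8.549% and 11.05% of a library's counts. Their levels are given as CPM scaled by the TMM method, and a gene was called higher or lower when its false discovery rate (FDR) in the quasi-likelihood F-test of edgeR was below 0.1 over all tested genes. The FDR is printed as the adjusted p. The summed level of the photosystem II antenna was 30690 ± 1448 CPM in Col-0 with mock (SD, n = 3) and 26040 ± 1860 in jaz9-1. It was 21910 ± 876.2 CPM in jaz9-1 with 2e against 27980 ± 2702 in Col-0. The sum of the RBCS genes was 28350 ± 496.5 CPM in Col-0 with 2 and 38280 ± 5343 in jaz9-1 with 2. With mock it was 30960 ± 934.7 and 31860 ± 1034 CPM, so the RBCS sums of the genotypes lay close together without compound and apart with 2. These sums are descriptions over members and were not tested.

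**Figure D1:**
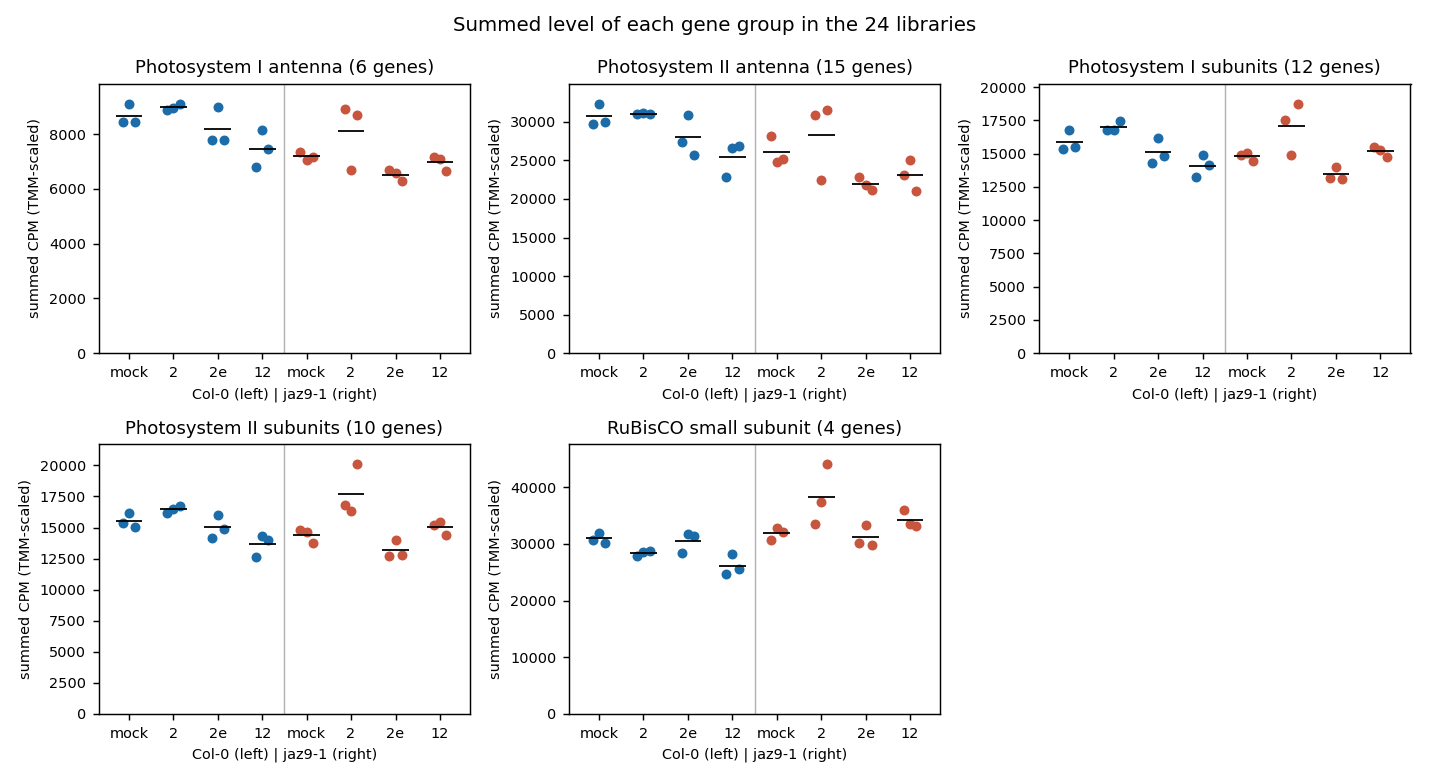
Summed TMM-scaled CPM of the 5 gene groups, each point 1 library and each line the mean of 3, with Col-0 in blue on the left and jaz9-1 in red on the right of each panel. The photosystem II antenna averaged 30690 CPM in Col-0 with mock and 26040 in jaz9-1, whereas RBCS with 2 averaged 28350 in Col-0 and 38280 in jaz9-1.

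The genotypes differed with mock in antenna genes and photosystem I subunits. There, 10 of the 47 members were lower in jaz9-1 than in Col-0, where 1.34% of all tested genes were lower, and 0 were higher against 1.19% of all genes. The 10 comprised 5 photosystem II antenna genes, 2 photosystem I antenna genes and 3 photosystem I subunits, while no PSB or RBCS gene was called. The median log2 difference was -0.12 over the members and 0.01 over all tested genes. With 2e, 18 members were lower against 2.11% of all genes, 11 of them antenna genes and 7 subunits of the photosystems, and 1 was higher against 1.24%. With 2, 9 were lower (3.48% of all genes) and 9 higher (4.8%), and with 12, 5 were lower (1.56%) and 11 higher (1.86%). These 4 genotype comparisons share no libraries.

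Single libraries moved these counts. With mock the 10 became 5 when jaz9-1 mock replicate 3 was left out and 6 when Col-0 mock replicate 2 was. With 2 the 18 calls in both directions became 11 without Col-0 2 replicate 3, and with 2e the 19 became 11 without jaz9-1 2e replicate 3. With 12 the 16 became 9 without Col-0 12 replicate 1, 8 without Col-0 12 replicate 3, 9 without jaz9-1 12 replicate 1 and 10 without jaz9-1 12 replicate 2. A fit of the compared groups alone gave 17 members with mock and 8 with 2.

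**Figure D2:**
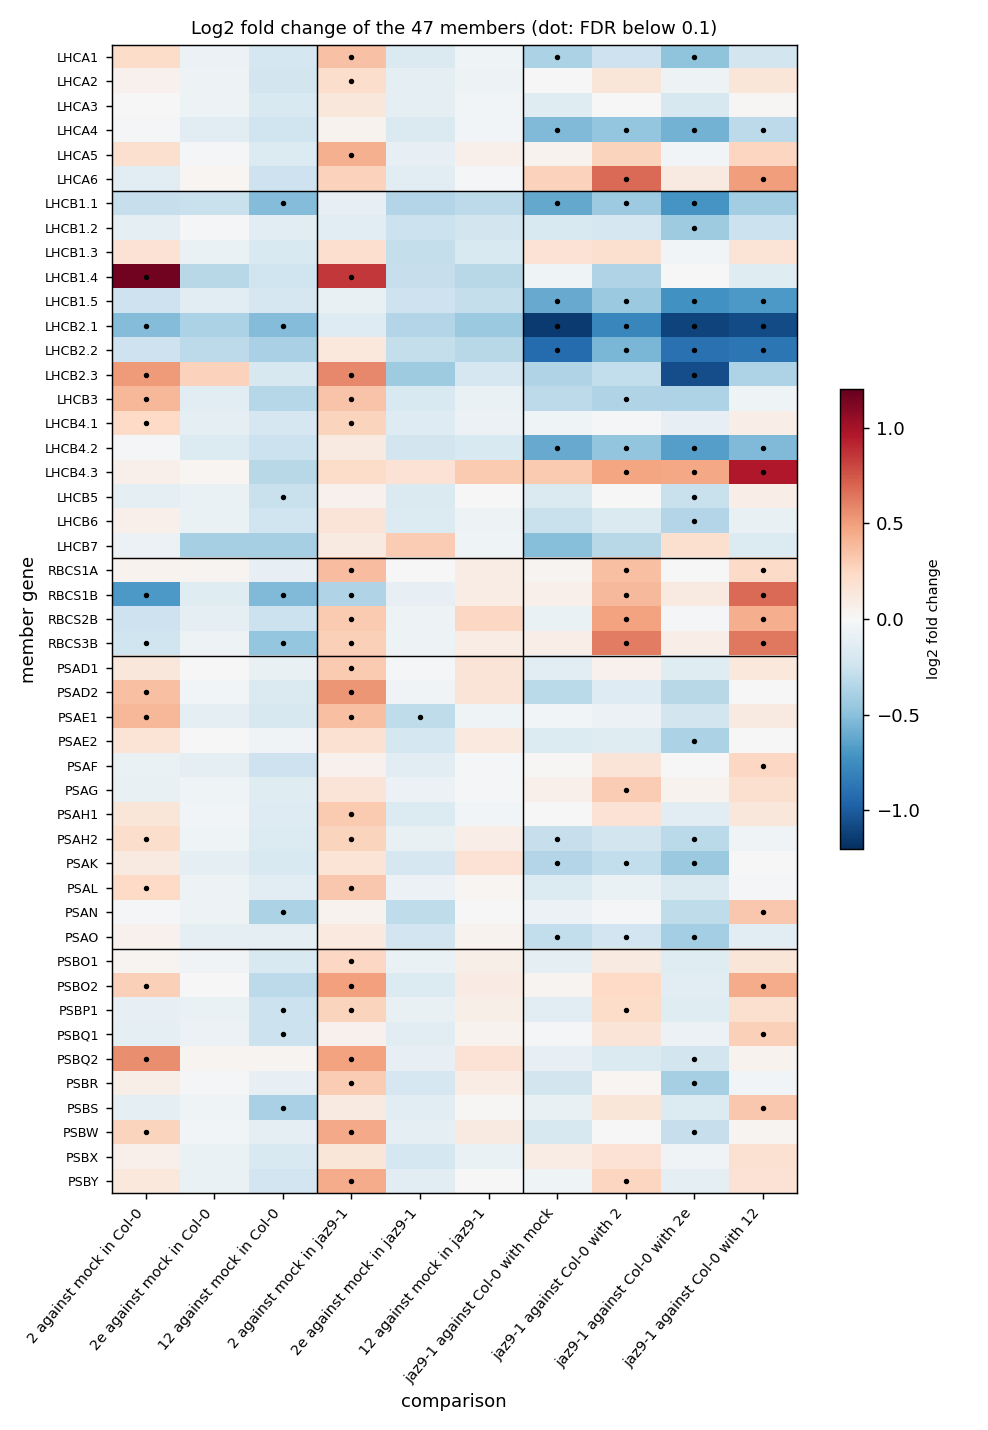
Log2 fold change of the 47 members (rows, by gene group) in 6 comparisons with mock and 4 comparisons of genotype (columns), with a dot where the FDR was below 0.1. LHCB2.1, LHCB2.2, LHCB1.5, LHCB4.2 and LHCA4 carry a blue field with a dot in all 4 genotype columns, and the 4 RBCS rows are red in the genotype columns with 2 and with 12.

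LHCB2.1 (AT2G05100), which encodes a protein of the major trimeric antenna of photosystem II, differed most. In Col-0 with mock it was at 1543, 1703 and 1592 CPM, and in jaz9-1 at 766.9, 695 and 723.5. With 2 the Col-0 libraries were at 1139, 1163 and 1065 CPM and those of jaz9-1 at 725.2, 505.6 and 728.3. With 2e they were at 1222, 1396 and 1097 CPM in Col-0 and 690, 537.7 and 489.5 in jaz9-1, and with 12 at 925.2, 1229 and 1228 against 635.7, 565 and 408.6. All 12 jaz9-1 libraries were thus below all 12 Col-0 libraries. The log2 difference was -0.78 with 2 (SE 0.136, adjusted p = 0.000515), -1.11 with 2e (SE 0.137, adjusted p = 4.53e-06) and -1.07 with 12 (SE 0.137, adjusted p = 8.44e-06), all from the edgeR fit with n = 3 per group, and lower with mock as well (adjusted p = 6.87e-06).

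LHCB1.5 (AT2G34420), a copy of the other major antenna protein, was the only further member whose genotypes separated in all 24 libraries, with 1373 to 2189 CPM in jaz9-1 and 2288 to 3190 in Col-0. Such a separation, jaz9-1 below, was seen in 4.26% of the members and in 0.144% of all tested genes. With mock its log2 difference was -0.61 (SE 0.114, adjusted p = 0.00248). With 2 it was -0.45 (adjusted p = 0.0173), a call that was lost without jaz9-1 2 replicate 2 and in a fit of those 2 groups alone (adjusted p = 0.144).

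LHCB2.2 (AT2G05070), the close copy of LHCB2.1, was at 915.4, 1089 and 982 CPM in Col-0 with mock and at 591.2, 493.1 and 494.5 in jaz9-1. It ran from 634.9 to 1089 CPM over the 12 Col-0 libraries and from 345.1 to 647.1 over those of jaz9-1, so that the genotypes overlapped by 1 library each way. The log2 difference ranged from -0.92 with mock (adjusted p = 6.19e-05) to -0.55 with 2 (adjusted p = 0.00813). The third copy, LHCB2.3 (AT3G27690), was lower in jaz9-1 with 2e (-1.07) and was not called in the other 3 treatments.

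LHCB4.2 (AT3G08940), a gene for the minor antenna protein CP29, was at 715.1, 838.1 and 718.2 CPM in Col-0 with mock against 518.9, 514.8 and 460 in jaz9-1. Its log2 difference was -0.60 with mock (adjusted p = 0.000399), -0.47 with 2, -0.66 with 2e and -0.53 with 12, and each passed under every alternative except a 2.5-fold minimum. LHCB4.3 (AT2G40100), another CP29 gene of much lower count, went in the opposite direction and was the only member higher in jaz9-1 in 3 treatments. It stood at 18.02, 17.68 and 20.82 CPM in Col-0 with 12 and at 44.42, 33.22 and 31.83 in jaz9-1, a log2 difference of 0.96 (SE 0.148, adjusted p = 0.000147). The calls with 2 (adjusted p = 0.0604) and with 2e (adjusted p = 0.0976) were each lost without 5 of the 6 libraries in turn.

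In the belt of 4 antenna proteins on photosystem I, LHCA4 (AT3G47470) was at 2906, 3172 and 2897 CPM in Col-0 with mock and at 2055, 2035 and 2140 in jaz9-1. With 2e it was at 2598, 2955 and 2667 CPM in Col-0 and at 1897, 1834 and 1804 in jaz9-1. The log2 difference was -0.53 with mock (SE 0.092, adjusted p = 0.00116), -0.46 with 2, -0.57 with 2e and -0.32 with 12, where the adjusted p of 0.0591 was lost without any 1 of 4 libraries. Its partner LHCA1 (AT3G54890) was at 1634, 1734 and 1645 CPM in Col-0 with mock and at 1375, 1175 and 1308 in jaz9-1. LHCA1 was lower with mock (-0.38, adjusted p = 0.042, lost without any 1 of 3 libraries, namely Col-0 mock replicate 2, jaz9-1 mock replicate 2 and jaz9-1 mock replicate 3) and with 2e (-0.48, adjusted p = 0.00428). With 2 and with 12 it did not pass (-0.25 and -0.22). LHCA6 (AT1G19150), which joins photosystem I to the chloroplast NDH complex, was higher in jaz9-1 with 2 (0.68, adjusted p = 0.00683) and with 12 (0.50, adjusted p = 0.0792), the latter lost without any 1 of the 6 libraries.

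**Figure D3:**
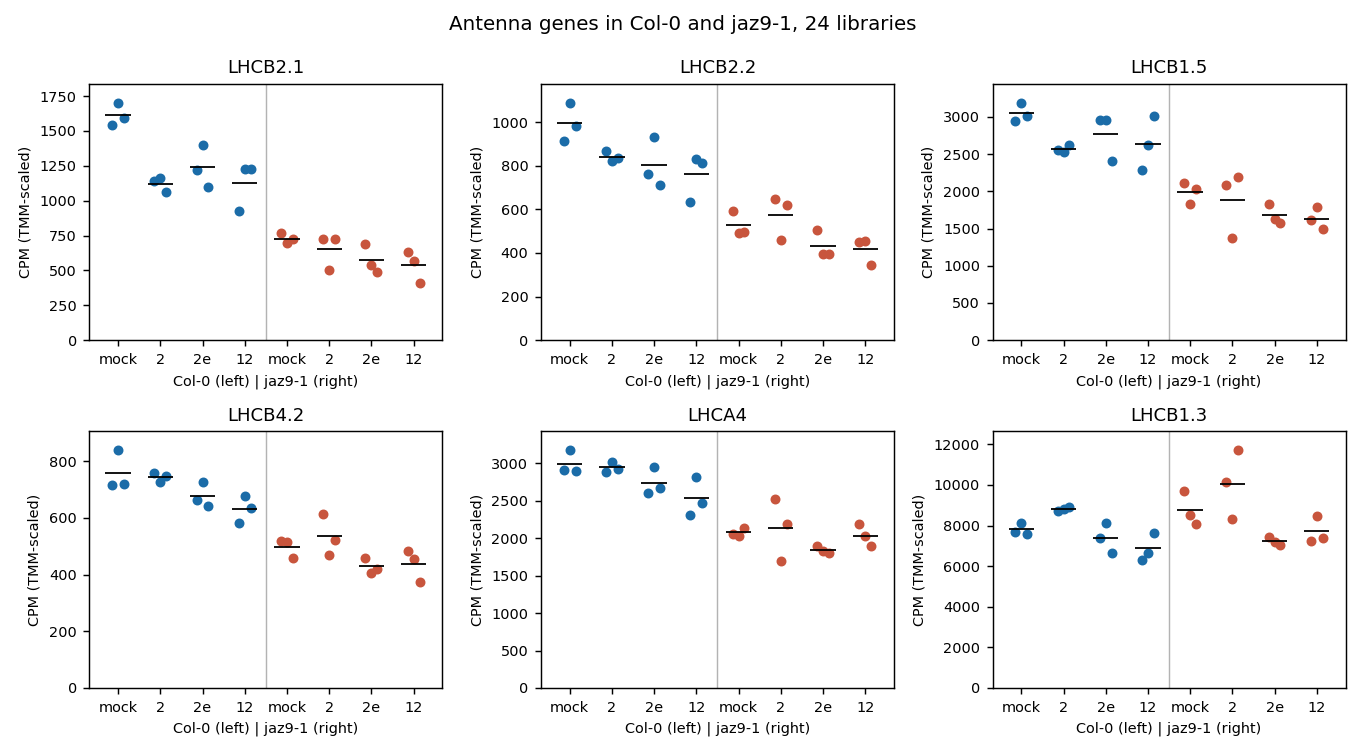
TMM-scaled CPM of 6 antenna genes in the 24 libraries, each point 1 library and each line the mean of 3, with Col-0 in blue on the left and jaz9-1 in red on the right. All jaz9-1 libraries lie below all Col-0 libraries for LHCB2.1 and LHCB1.5, and LHCB1.3 shows no such gap, with 7032 to 11700 CPM in jaz9-1 and 6324 to 8901 in Col-0.

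Copies of 1 family did not move alike. LHCB1.3 (AT1G29930), which took 43.39% to 44.03% of the LHCB1 counts in Col-0 with mock, was not called in any genotype comparison. Its log2 difference with mock was 0.17, with an interval from -0.01 to 0.35. Its share of the LHCB1 counts was 52.72% to 56.94% in jaz9-1 with mock, while that of LHCB1.5 went from 16.83% to 17.2% in Col-0 to 11.81% to 13.3% in jaz9-1. LHCB1.1 (AT1G29920), next to LHCB1.3 on chromosome 1, was lower in jaz9-1 with mock, 2 and 2e. With mock it was at 3913, 4318 and 3833 CPM in Col-0 and at 3128, 2278 and 2455 in jaz9-1 (-0.62), a call lost without jaz9-1 mock replicate 3 (adjusted p = 0.103).

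Reads from near-identical copies can be assigned to the wrong copy. In the RefSeq models of TAIR10.1, 7.43% of the 100-base exon windows of LHCB2.1 and 7.28% of those of LHCB2.2 occur unchanged in the other copy, and 4.23% of the windows of LHCB1.5 occur in LHCB1.4. Of the windows of LHCB1.1, 4.44% occur in LHCB1.2 or LHCB1.3, to which its coding sequence is 95.6% and 96.1% identical. The values of these copies are therefore uncertain. LHCA4 and LHCB4.2 shared no such window with any other gene.

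The 5 members lower in jaz9-1 in all 4 treatments were LHCB2.1, LHCB2.2, LHCB1.5, LHCB4.2 and LHCA4. Their upstream sequences are shown because these genes moved together. Each is the 250 bases before the annotated gene start in the RefSeq annotation of TAIR10.1, 5′ to 3′ on the gene's strand. The labels name TAIR10, and the count table holds no coordinates. Capitals mark every match, on either strand, to the G-box CACGTG, the I-box GATAAG, the CCA1-binding site AAAAATCT, the evening element AAAATATCT or the letters CCAATC. LHCB2.1 lies at chr2:1824481-1824730 on the minus strand, LHCB2.2 at chr2:1800473-1800722 on the minus strand, LHCB1.5 at chr2:14523569-14523818 on the minus strand, LHCB4.2 at chr3:2717307-2717556 on the plus strand and LHCA4 at chr3:17495034-17495283 on the minus strand.
LHCB2.1: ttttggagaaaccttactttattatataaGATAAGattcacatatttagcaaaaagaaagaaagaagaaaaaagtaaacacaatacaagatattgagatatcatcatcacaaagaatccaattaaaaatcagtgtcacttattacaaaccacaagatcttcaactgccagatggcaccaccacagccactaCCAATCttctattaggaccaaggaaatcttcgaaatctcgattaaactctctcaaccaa
LHCB2.2: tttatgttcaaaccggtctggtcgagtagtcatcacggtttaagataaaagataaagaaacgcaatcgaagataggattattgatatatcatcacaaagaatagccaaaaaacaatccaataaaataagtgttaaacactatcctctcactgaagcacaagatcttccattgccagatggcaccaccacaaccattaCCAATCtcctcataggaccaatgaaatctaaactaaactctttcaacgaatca
LHCB1.5: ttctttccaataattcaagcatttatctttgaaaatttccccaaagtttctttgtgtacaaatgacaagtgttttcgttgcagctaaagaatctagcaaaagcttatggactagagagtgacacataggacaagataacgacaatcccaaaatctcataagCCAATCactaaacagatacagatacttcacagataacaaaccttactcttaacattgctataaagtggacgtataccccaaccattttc
LHCB4.2: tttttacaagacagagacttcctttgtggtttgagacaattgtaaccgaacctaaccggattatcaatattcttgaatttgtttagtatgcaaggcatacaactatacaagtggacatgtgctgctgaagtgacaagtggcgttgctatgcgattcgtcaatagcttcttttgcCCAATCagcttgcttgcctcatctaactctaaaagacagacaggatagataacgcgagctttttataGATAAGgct
LHCA4: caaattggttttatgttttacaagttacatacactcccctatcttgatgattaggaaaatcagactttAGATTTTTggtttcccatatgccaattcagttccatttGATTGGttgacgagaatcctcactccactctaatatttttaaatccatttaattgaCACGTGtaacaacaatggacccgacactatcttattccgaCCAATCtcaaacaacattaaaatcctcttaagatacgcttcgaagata
All 5 windows hold CCAATC, which was found in 5 of the other 16 antenna genes, in 1 of the 26 members outside the antenna and in 10.2% of all 27443 nuclear protein-coding genes with such a window. The antenna genes that hold it outside the 5 are LHCA1, LHCA3, LHCB1.3, LHCB2.3 and LHCB4.1. The G-box was found in 10 of the 47 members and in 6.49% of all windows, the I-box in 10 and in 12.3%, the CCA1-binding site in 5 and in 6.69%, and the evening element in 1 and in 2.36%. The 5 genes were picked by their values in these data. LHCB2.1 and LHCB2.2 are copies of 1 family whose windows share letters around CCAATC, so the 5 matches are not all separate. A match is a stretch of letters and no proof of a bound site.

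Among the photosystem I subunits, PSAK (AT1G30380), at the edge where antenna proteins attach, was at 1264, 1397 and 1314 CPM in Col-0 with mock and at 1109, 1084 and 925.6 in jaz9-1. It was lower in jaz9-1 with mock (-0.35, adjusted p = 0.0261), with 2 (-0.29) and with 2e (-0.44), and with 12 its log2 difference was 0.01. PSAO (AT1G08380), on the side where the mobile antenna docks, was at 1318, 1389 and 1325 CPM in Col-0 with mock and at 1148, 1130 and 1011 in jaz9-1 (-0.29, adjusted p = 0.0513). The call of PSAK with mock was lost when Col-0 mock replicate 2 (adjusted p = 0.133) or jaz9-1 mock replicate 3 (adjusted p = 0.229) was left out, and that of PSAO when any Col-0 mock library or jaz9-1 mock replicate 3 was (adjusted p = 0.105 to 0.283). Of the 10 photosystem II subunits none was called between the genotypes with mock (median -0.09), 2 were higher in jaz9-1 with 2 (median 0.15), 3 lower with 2e and 3 higher with 12 (median 0.18). With mock the lowest adjusted p among them was 0.237, for PSBW (AT2G30570), which was at 2137, 2270 and 2112 CPM in Col-0 and at 1842, 2010 and 1857 in jaz9-1. PSBR (AT1G79040) was at 2356, 2388 and 2352 CPM in Col-0 and at 2041, 2119 and 1928 in jaz9-1 (adjusted p = 0.248).

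Other genes also differed between the genotypes where these members did. With mock, 1.34% of all tested genes were lower in jaz9-1 and 1.19% higher. Of 13 regulators of photosynthesis genes, 3 were lower and none was higher. GLK2, a transcription factor for nuclear photosynthesis genes, was lower in jaz9-1 (log2 difference -0.78, adjusted p = 0.000441), and so was PIF5, a light-signalling repressor (-0.85, adjusted p = 0.00168). Of 10 clock genes tested, 3 were lower and 2 higher. CCA1, a morning clock factor known to bind antenna gene promoters, was at 16.2 to 33.69 CPM over the 12 Col-0 libraries and at 1.999 to 8.496 over those of jaz9-1. TOC1, an evening clock gene, was higher in jaz9-1 with mock (0.95, adjusted p = 0.000918). CCA1 was lower in jaz9-1 in all 4 treatments, with log2 differences of -2.30, -1.89, -2.08 and -2.03 with mock, 2, 2e and 12. The part of these regulators in the antenna result was not tested. Of 18 genes of chlorophyll synthesis, 1 was higher and 1 lower in jaz9-1 with mock, PORB (0.64, adjusted p = 0.00143) and CAO (-0.60, adjusted p = 0.04). Of 14 Calvin cycle genes none was called in either direction with mock, where their median was 0.02.

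Markers of other cell types were read beside the antenna. Of 16 root markers 1 was higher in jaz9-1 with mock, and their summed level was 180.4 to 213.3 CPM in Col-0 and 196.6 to 226.8 in jaz9-1. The 7 markers of shoot epidermis and stomata summed to 246.4 to 279.9 and 270 to 281.9 CPM, with none called, and the 3 phloem markers to 106.3 to 114.6 and 82.8 to 104.2, with 1 lower. Of all tested genes 1.19% were higher and 1.34% lower in jaz9-1 with mock. None of these markers was at 0 over all libraries. Their part in the result was not tested.

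With 2, more members were called higher than lower in both genotypes on the TMM scale. In Col-0, 11 were higher and 3 lower, where 11.9% of all tested genes were higher and 11.2% lower. In jaz9-1, 23 were higher and 1 lower, where 14.9% of all genes were higher and 14.2% lower. The median log2 fold change was 0.06 over the members in Col-0 and 0.22 in jaz9-1, against -0.02 and -0.03 over all tested genes. The direction in Col-0 rests on that scaling, and the rise in jaz9-1 was not clear without it. As shares of all counts, every Col-0 library with 2 was below every mock library for the members together (9.289% to 9.43% against 10.34% to 11.05%) and for each of the 5 gene groups, for example the photosystem I subunits (1.538% to 1.594% against 1.6% to 1.746%). In jaz9-1 the shares of the members together overlapped (8.956% to 10.4% against 9.435% to 9.717%). So did those of each of the 5 gene groups there, for example the photosystem I subunits (1.366% to 1.584% against 1.47% to 1.543%). DESeq2, RLE factors and scaling by nuclear genes other than the members each gave 11 higher and 3 lower in Col-0. The comparisons in Col-0 and jaz9-1 share no libraries. All 11 members higher in Col-0 were also higher in jaz9-1, a further 12 passed as higher in jaz9-1 and not in Col-0, and 22 were called in neither. The fold change was positive in both genotypes for 27 members, and the difference between the responses passed for 1 of 47, so the larger count in jaz9-1 does not show that those members responded in jaz9-1 only. In a fit of the compared groups alone the counts were 27 in Col-0 and 15 in jaz9-1.

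LHCB1.4 (AT2G34430), the LHCB1 copy next to LHCB1.5 on chromosome 2, had the largest change of the members with 2. It was at 302, 356.9 and 332.9 CPM in Col-0 with mock and at 879.3, 675.9 and 661.1 with 2. In jaz9-1 it was at 315, 308.3 and 330.5 CPM with mock and at 738, 374.1 and 608.1 with 2, where replicate 2 was the lowest. In both genotypes every library with 2 was above every mock library. The log2 fold change was 1.16 in Col-0 (SE 0.15, adjusted p = 2.4e-07) and 0.85 in jaz9-1 (SE 0.15, adjusted p = 4.7e-05). Its share of the LHCB1 counts rose from between 1.73% and 1.907% to between 3.683% and 4.918% in Col-0. Its upstream window, at chr2:14524357-14524606 on the plus strand, is shown beside the 5 above as the window of the strongest responder to 2. It holds the CCA1-binding letters 11 bases before the annotated start and no CCAATC.
LHCB1.4: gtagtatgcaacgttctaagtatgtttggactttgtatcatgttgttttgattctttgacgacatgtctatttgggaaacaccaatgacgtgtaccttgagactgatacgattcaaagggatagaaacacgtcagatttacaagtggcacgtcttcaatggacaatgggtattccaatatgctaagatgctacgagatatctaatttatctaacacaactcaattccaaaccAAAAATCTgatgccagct

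Other antenna genes that rose with 2 in both genotypes on the TMM scale were LHCB2.3, LHCB3 (AT5G54270), the third protein of the trimeric antenna, and LHCB4.1. The Col-0 call of LHCB2.3 was lost when Col-0 mock replicate 1, Col-0 mock replicate 3 or Col-0 2 replicate 1 was left out. LHCB3 was at 2330, 2599 and 2309 CPM in Col-0 with mock and at 3193, 3235 and 3104 with 2 (log2 fold change 0.40, adjusted p = 0.0246). In jaz9-1 it was at 2042, 1843 and 1950 CPM with mock and at 3117, 1677 and 2621 with 2 (0.35, adjusted p = 0.0473), so that replicate 2 with 2 lay below mock. That call was lost without jaz9-1 mock replicate 2, jaz9-1 2 replicate 1 or jaz9-1 2 replicate 3. LHCB2.1 fell with 2 in Col-0 by 0.52 on the log2 scale (SE 0.135, adjusted p = 0.00462). In jaz9-1 its change was -0.16, with an interval from -0.44 to 0.12. LHCA1 and LHCA5 (AT1G45474), the other link to the NDH complex, passed with 2 in jaz9-1 and not in Col-0, and neither differed in response between the genotypes by the test of that difference (adjusted p = 0.783 and 0.624). LHCA1 was at 2020, 1852 and 1983 CPM with 2 in Col-0, above every mock library on the TMM scale (0.22, adjusted p = 0.121). In jaz9-1 it was at 1307 to 1892, where replicate 2 overlapped with mock (0.35, adjusted p = 0.00768). LHCA5 was at 84.97, 89.92 and 91.01 CPM with mock and at 104.9, 124.5 and 128.6 with 2 there (0.42, adjusted p = 0.00601). In Col-0 it was at 85.94, 83.11 and 89.57 against 92.45, 106 and 98.09 (0.20, adjusted p = 0.273), so on the TMM scale it was above mock in both.

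On the TMM scale, 3 of 10 photosystem II subunits responded to 2 in Col-0 and 7 of 10 in jaz9-1, all upward. Of all tested genes, 11.9% rose and 11.2% fell in Col-0, and 14.9% and 14.2% did in jaz9-1. PSBQ2 (AT4G05180), a subunit of the oxygen-evolving complex, was at 924, 950.7 and 923.8 CPM in Col-0 with mock and at 1347, 1364 and 1399 with 2. The jaz9-1 libraries were at 891.8, 887.8 and 833.3 CPM with mock and at 1250, 1121 and 1282 with 2. The groups did not overlap in either genotype, with log2 fold changes of 0.55 (SE 0.068, adjusted p = 8.99e-08) and 0.48 (SE 0.068, adjusted p = 1.35e-06). Its share of the PSBQ counts was 40.1% to 43.14% with mock and 53.06% to 53.41% with 2 in Col-0, the other copy being PSBQ1. PSBW, a small subunit that stabilizes photosystem II complexes, was at 2520, 2660 and 2645 CPM with 2 in Col-0 (0.26, adjusted p = 0.0105) and at 2485, 2393 and 2962 in jaz9-1 (0.46, adjusted p = 1.7e-05), above every mock library. PSBR rose in jaz9-1 (0.31, adjusted p = 0.00949), a call lost without jaz9-1 2 replicate 3 (adjusted p = 0.168). In Col-0 its change with 2 was 0.07.

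On the same scale, 4 of 12 photosystem I subunits rose with 2 in Col-0 and 6 of 12 in jaz9-1. None fell, while 11.9% of all tested genes rose and 11.2% fell in Col-0, and 14.9% and 14.2% in jaz9-1. PSAE1 (AT4G28750), on the stromal side where ferredoxin docks, was at 1327, 1489 and 1360 CPM in Col-0 with mock and at 1806, 1795 and 1898 with 2 (0.40, SE 0.084, adjusted p = 0.000502). The jaz9-1 libraries were at 1393, 1370 and 1315 CPM with mock and at 1882, 1433 and 1928 with 2 (0.36, adjusted p = 0.00135). PSAL (AT4G12800), at the docking side of the mobile antenna, was at 1471, 1486 and 1416 CPM in Col-0 with mock and at 1676, 1709 and 1782 with 2 (0.24, adjusted p = 0.00836). In jaz9-1 the levels were 1369, 1248 and 1286 CPM with mock and at 1687, 1488 and 1722 with 2 (0.33, adjusted p = 0.000341). PSAD2 and PSAH2, on the same sides of the complex, were the other 2 that rose in both genotypes, though the Col-0 call of PSAH2 was lost without any 1 of 5 libraries, while PSAK and PSAO did not pass with 2 in either (0.05 to 0.17).

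**Figure D4:**
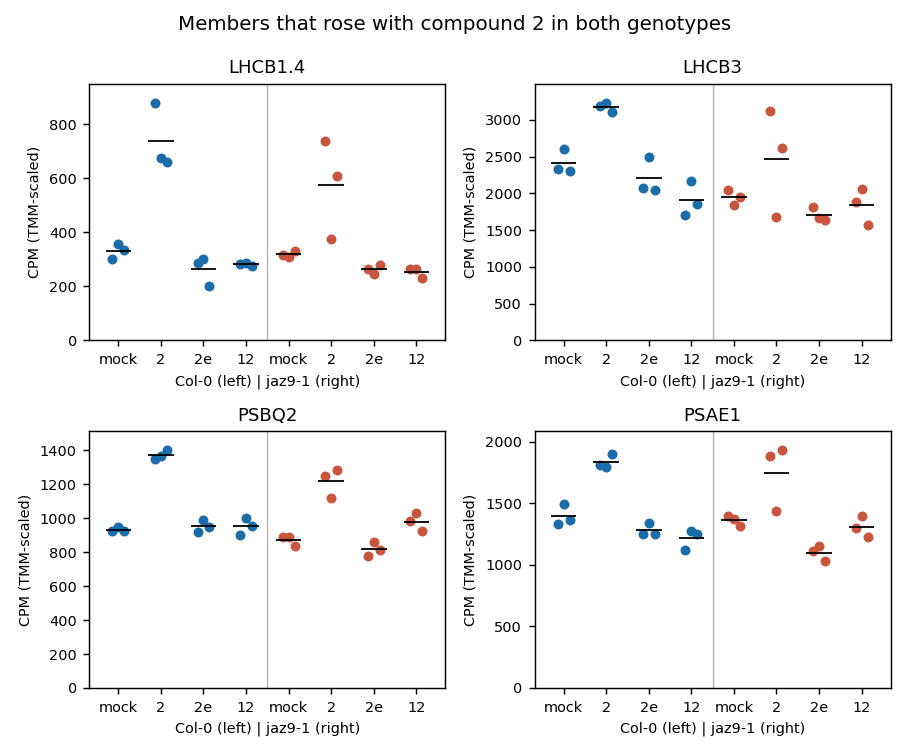
TMM-scaled CPM of 4 members that rose with 2 in both genotypes, in the 24 libraries, each point 1 library and each line the mean of 3, with Col-0 in blue on the left and jaz9-1 in red on the right. LHCB1.4 lies at 661.1 to 879.3 CPM with 2 in Col-0 against 302 to 356.9 with mock, and in jaz9-1 its replicate 2 with 2 is at 374.1.

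With 2e and with 12 no member was called higher than mock in either genotype. PSBQ2 was at 921 to 990.4 CPM with 2e and 901.8 to 1003 with 12 in Col-0, and at 774.9 to 861 and 926.2 to 1032 in jaz9-1, all below its libraries with 2. PSAL was at 1325 to 1521 and 1291 to 1362 CPM in Col-0 and at 1224 to 1255 and 1287 to 1358 in jaz9-1, and PSBW was at 1936 to 2267 and 1870 to 2092 in Col-0 and at 1668 to 1894 and 1974 to 2092 in jaz9-1. LHCB3 was at 2047 to 2496 and 1705 to 2166 CPM in Col-0 and at 1642 to 1814 and 1566 to 2056 in jaz9-1. On the TMM scale, the libraries of PSBQ2, PSBW and LHCB1.4 with 2 did not overlap with those of 2e or 12 in either genotype. Of the members marked by genotype, LHCA1 was at 1469 to 1800 CPM with 2e and 1279 to 1612 with 12 in Col-0, against 1115 to 1167 and 1139 to 1293 in jaz9-1. PSBR was at 2244 to 2384 and 1992 to 2441 CPM in Col-0 and at 1623 to 1920 and 1972 to 2346 in jaz9-1, where the call with 2e (-0.40, adjusted p = 0.00878) was lost when jaz9-1 2e replicate 3 was left out.

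The remaining genes of the pathway were read from lists. With 2, 11.9% of all tested genes were higher and 11.2% lower in Col-0, and 14.9% and 14.2% in jaz9-1. In Col-0 with 2, 7 of 14 Calvin cycle genes were lower and none higher, among them RCA (RuBisCO activase, -0.56, adjusted p = 0.000175) and PRK (phosphoribulokinase, -0.49, adjusted p = 0.000235). In jaz9-1 with 2, 3 were higher and none lower. Of 16 genes of electron transport and ATP synthase, 4 were higher and 3 lower in Col-0, and 9 higher and none lower in jaz9-1. ATPD, a subunit of the plastid ATP synthase, rose by 0.47 in Col-0 (adjusted p = 1.34e-05) and by 0.56 in jaz9-1 (adjusted p = 6.29e-07). Of 18 genes of chlorophyll synthesis, 2 were higher and 3 lower in Col-0, with a median of -0.10, and 1 was higher and 1 lower in jaz9-1. HEMA1, an early enzyme of that pathway, rose in both (0.94, adjusted p = 6.02e-06, and 0.95, adjusted p = 6.07e-06). Of 13 regulators, 1 was higher and 6 lower in Col-0, and GLK1 rose while GLK2 fell (0.79, adjusted p = 5e-05, and -0.81, adjusted p = 5.26e-06). Of 7 stress relatives of the antenna proteins, 3 were lower in each genotype, ELIP2 by 1.62 on the log2 scale in Col-0 (adjusted p = 0.0016). Of 12 plastid-encoded photosynthesis genes 1 was higher in Col-0 and none in jaz9-1.

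Cell type markers were read with 2 as well. The 7 markers of shoot epidermis and stomata summed to 160.4 to 176.5 CPM with 2 in Col-0 against 246.4 to 279.9 with mock, and to 167.5 to 217.8 against 270 to 281.9 in jaz9-1, with 1 of 7 lower in each. The 3 phloem markers summed to 126.6 to 133.6 CPM with 2 in Col-0 against 106.3 to 114.6 and to 125.9 to 170.1 against 82.8 to 104.2 in jaz9-1, with 2 of 3 higher in each. Of 16 root markers 2 were lower in Col-0, and 1 was higher and 2 lower in jaz9-1. Of all tested genes, 11.9% were higher and 11.2% lower in Col-0, and 14.9% and 14.2% in jaz9-1. The shares of root and epidermis markers called lower were near these. The median log2 fold change of the epidermis markers was -0.07 in Col-0 and -0.28 in jaz9-1. Their part in the responses to 2 was not tested.

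Of the 4 RBCS genes, 2 fell and none rose with 2 in Col-0, where 11.2% of all tested genes fell and 11.9% rose, and in jaz9-1 3 rose and 1 fell, where 14.9% and 14.2% did. All 4 were higher in jaz9-1 than in Col-0 with 2 and with 12, where 4.8% and 1.86% of all genes were, and none was called with mock or with 2e. RBCS1B, RBCS2B and RBCS3B stand in a row on chromosome 5, and their coding sequences are 94.1% to 97.3% identical, so reads may be split between them. RBCS1A lies on chromosome 1 and is 87.7% to 90.1% identical to the others. Of the 100-base exon windows of RBCS3B, 12.1% occur unchanged in RBCS1B, and RBCS1A and RBCS2B share none.

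RBCS1B (AT5G38430) was at 3966, 4410 and 3844 CPM in Col-0 with mock and at 2460, 2784 and 2314 with 2. With 2e it was at 3281, 3859 and 3939 CPM and with 12 at 2645, 3165 and 2641. In jaz9-1 it was at 4399, 4293 and 4067 CPM with mock, 3038, 3156 and 3720 with 2, 3568, 4224 and 4142 with 2e and 4785, 4662 and 4103 with 12. Its libraries with 2 were below mock in both genotypes, and its libraries with 12 were below mock in Col-0 and overlapped with it in jaz9-1. The log2 fold change with 2 was -0.69 in Col-0 (SE 0.09, adjusted p = 2.41e-07) and -0.36 in jaz9-1 (SE 0.09, adjusted p = 0.00254), and with 12 it was -0.53 in Col-0 (adjusted p = 0.000209) and 0.09 in jaz9-1 (interval -0.10 to 0.27). The genotype difference in the response to 12 was 0.62 and did not pass (adjusted p = 0.106). Its share of the RBCS counts went from between 12.74% and 13.79% to between 8.047% and 9.77% with 2 in Col-0, and from between 12.66% and 14.32% to between 8.441% and 9.081% in jaz9-1.

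RBCS3B (AT5G38410) was at 7256, 7847 and 6983 CPM in Col-0 with mock, 6016, 6274 and 6368 with 2, 6437, 7845 and 6856 with 2e and 4985, 5799 and 5188 with 12. In jaz9-1 it was at 7761, 7870 and 7723 CPM with mock, 8319, 8887 and 11350 with 2, 7217, 7941 and 7211 with 2e and 8396, 8336 and 8056 with 12. On the TMM scale every Col-0 library with 2 was below mock and every jaz9-1 library with 2 above it. The log2 fold change with 2 was -0.24 in Col-0 (adjusted p = 0.0324, lost when Col-0 mock replicate 2 or Col-0 2 replicate 1 was left out) and 0.29 in jaz9-1 (adjusted p = 0.00824, lost when jaz9-1 2 replicate 3 was left out). It was the only member with a called genotype difference in the response to 2, 0.53 (SE 0.115, adjusted p = 0.0338), where 0.477% of all tested genes were called higher and 0.264% lower. Leaving out any 1 of those 3 libraries ended this call as well, the highest adjusted p being 0.109. The count of 1 became 2 without jaz9-1 mock replicate 2 and 5 without jaz9-1 2 replicate 1.

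RBCS1A (AT1G67090), the copy with the most counts, was at 16870, 16920 and 17150 CPM in Col-0 with mock, 17210, 17200 and 18020 with 2, 16640, 17650 and 17950 with 2e and 14930, 17010 and 15670 with 12. For jaz9-1 the levels were 16450, 17580 and 18200 CPM with mock, 19670, 21940 and 25810 with 2, 17160, 18610 and 16400 with 2e and 19820, 17930 and 17910 with 12. On the TMM scale the libraries with 2 lay above mock in both genotypes, by a narrow margin in Col-0, and the rise passed in jaz9-1 (0.37, SE 0.07, adjusted p = 0.000124). In Col-0 the change with 2 was 0.04, with an interval from -0.10 to 0.18, and the difference between these responses did not pass (0.33, adjusted p = 0.157). As a share of all counts, the 4 RBCS genes together were below mock in every Col-0 library with 2 (2.564% to 2.632% against 3.147% to 3.324%). In jaz9-1 that share overlapped with mock (2.95% to 3.717% against 3.109% to 3.358%). RBCS2B (AT5G38420) was at 2613, 2813 and 2196 CPM in Col-0 with mock, 2120, 2243 and 2053 with 2, 2058, 2346 and 2647 with 2e and 2060, 2210 and 2092 with 12. The jaz9-1 libraries were at 2106, 2991 and 2126 CPM with mock, 2422, 3402 and 3143 with 2, 2275, 2595 and 2049 with 2e and 2936, 2510 and 3139 with 12. Its groups overlapped with mock in jaz9-1, and its rise with 2 there (0.31, adjusted p = 0.0592) was lost without any 1 of 4 libraries.

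**Figure D5:**
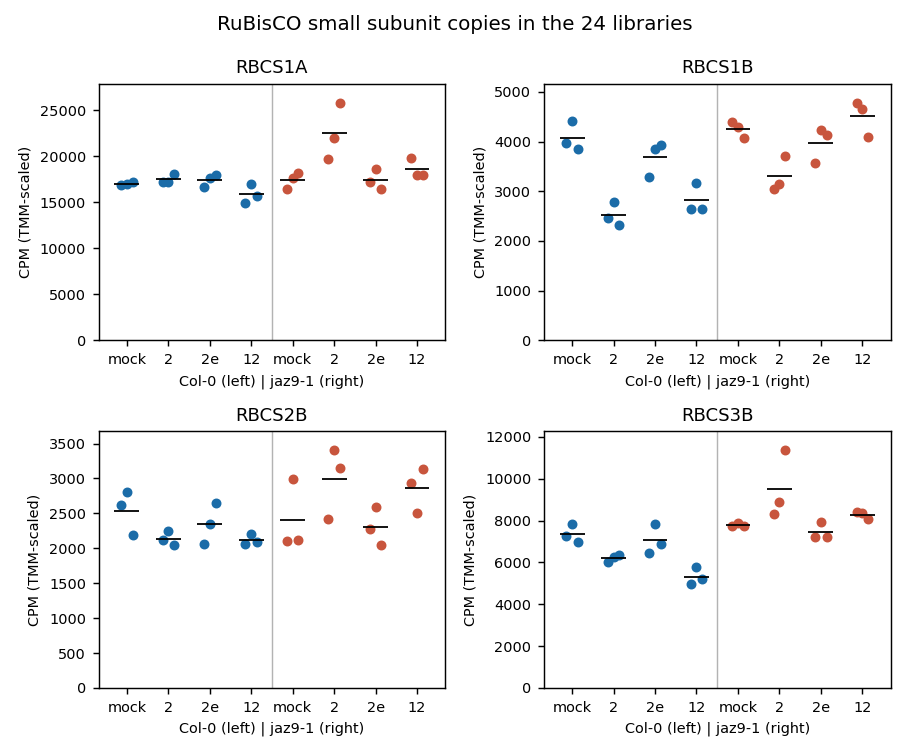
TMM-scaled CPM of the 4 RBCS copies in the 24 libraries, each point 1 library and each line the mean of 3, with Col-0 in blue on the left and jaz9-1 in red on the right. RBCS3B with 2 lies at 6016 to 6368 CPM in Col-0 and at 8319 to 11350 in jaz9-1, and RBCS1B with 2 lies below mock in both genotypes.

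Between the genotypes, RBCS3B was higher in jaz9-1 by 0.61 with 2 (adjusted p = 2.43e-05) and by 0.63 with 12 (adjusted p = 9.67e-06), and RBCS1B by 0.39 and 0.68 (adjusted p = 0.00766 and 1.38e-05). RBCS1A was higher by 0.36 and 0.23 (adjusted p = 0.00141 and 0.0897) and RBCS2B by 0.48 and 0.43 (adjusted p = 0.0148 and 0.0481). With 12, the call of RBCS1A was lost without any 1 of 5 libraries and that of RBCS2B without any 1 of 4, while its call with 2 was lost when jaz9-1 2 replicate 2 was left out (adjusted p = 0.103). Genes of the Calvin cycle, in which RuBisCO acts, lay the same way: 9 of 14 were higher in jaz9-1 with 2 and 8 of 14 with 12, and none was lower. GAPA and TKL1 led with 2 (0.51, adjusted p = 0.000589, and 0.39, adjusted p = 0.000368), and GAPA-2 and SBPASE with 12 (0.54, adjusted p = 0.000597, and 0.48, adjusted p = 0.000819). Of 16 genes of electron transport and ATP synthase 7 were higher with 2 and 8 with 12. Of all tested genes, 4.8% were higher in jaz9-1 with 2 and 1.86% with 12. These comparisons use the same Col-0 libraries as the comparisons of 2 and 12 with mock.

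With 12 in Col-0, 9 members were lower, where 0.855% of all tested genes were lower, and none was higher, where 2.19% were. The log2 fold change was negative in 46 of 47 members, with a median of -0.21 against 0.00 over all tested genes. Of the members 28 had an unadjusted p under 0.05, as had 2052 of all 20109 tested genes. The 9 were RBCS1B, RBCS3B (-0.47, adjusted p = 0.000363), LHCB1.1, LHCB2.1 (-0.52, adjusted p = 0.0319, lost when Col-0 mock replicate 2 or Col-0 12 replicate 1 was left out), LHCB5, PSAN, PSBP1, PSBQ1 and PSBS. Among them PSBS is the protein of photoprotective heat release, and LHCB5 the minor antenna protein CP26. The count depended on single libraries: it became 2 when Col-0 mock replicate 2 was left out, 3 without Col-0 12 replicate 1 and 5 without Col-0 12 replicate 3, and 27 in a fit of the 2 groups alone. RBCS1B and RBCS3B passed under every alternative except a 2.5-fold minimum. Of 14 Calvin cycle genes 5 were lower and none higher, with RCA first (-0.55, adjusted p = 0.00191).

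With the stereoisomer 2e few members passed, although most fold changes were negative. In Col-0 no member was called with 2e by edgeR or DESeq2, where 2.41% of all tested genes were higher and 0.343% lower. The fold change was negative in 40 of 47 members, with a median of -0.074. Over all 20109 tested genes it was negative in 10185, with a median of -0.004. An unadjusted p under 0.05 was seen for 3 members and for 1852 of all 20109 tested genes. The lowest adjusted p was that of LHCB2.1, with a log2 fold change of -0.38 (interval -0.66 to -0.10, adjusted p = 0.207). In jaz9-1 1 member was lower with 2e, where 0.244% of all genes were, and none was higher, where 1.73% were. In that comparison 18 of 47 had an unadjusted p under 0.05, as had 1933 of all 20109 tested genes. The fold change was negative in 45 members, with a median of -0.15 against 0.00 over all tested genes. The member called was PSAE1, at 1108, 1155 and 1029 CPM against 1393, 1370 and 1315 with mock (-0.31, SE 0.084, adjusted p = 0.0547). The call was lost without jaz9-1 mock replicate 1, jaz9-1 mock replicate 2, jaz9-1 2e replicate 1 or jaz9-1 2e replicate 3, and the count became 4 without jaz9-1 2e replicate 2 and 2 without jaz9-1 mock replicate 3. With 12 in jaz9-1 no member was called by either tool, where 2.01% of all genes were higher and 0.482% lower. An unadjusted p under 0.05 was seen for 11 members and for 2154 of all 20109 tested genes. The count of called members was 1 without jaz9-1 mock replicate 2 and 1 without jaz9-1 12 replicate 1. All these comparisons within a genotype share its mock libraries.

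The compounds were also compared with each other at the same dose and time. In Col-0, 2e left 14 members lower than 2 did (9.01% of all tested genes) and 1 higher (8.51%), and 12 left 26 lower (9.31%) and none higher (7.59%). In jaz9-1, 2e left 38 of 47 lower than 2 (13.3%) and 1 higher (12.2%), and 12 left 25 lower (12.8%) and 1 higher (11.4%). The latter count of 26 in both directions was 17 without jaz9-1 12 replicate 3. These comparisons share the libraries with 2 within a genotype, and their counts are on the TMM scale. As shares of all counts, every Col-0 library with 2e was above every one with 2 for the members together (9.596% to 10.66% against 9.289% to 9.43%). With 12 in Col-0 the share overlapped with that of 2 (8.669% to 9.746%). In jaz9-1 the shares with 2e (8.549% to 9.237%) and with 12 (9.332% to 9.876%) overlapped with that of 2 (8.956% to 10.4%). LHCB1.4 differed most: 2e against 2 gave -1.49 (SE 0.151, adjusted p = 2.16e-09) and 12 against 2 gave -1.40 (SE 0.151, adjusted p = 7.99e-09) in Col-0, and -1.13 and -1.18 in jaz9-1. The member that was higher with 2e than with 2 in each genotype was RBCS1B (0.55, adjusted p = 1.63e-05, and 0.27, adjusted p = 0.0313, the latter lost without any 1 of 4 libraries). It was also the member higher with 12 than with 2 in jaz9-1 (0.45).

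Between 2e and 12 no member passed in either genotype by edgeR, and 1 passed by DESeq2 in each. In Col-0, 0% of all tested genes were higher and 0% lower. There, 10 members had an unadjusted p under 0.05, as had 810 of all 20109 tested genes. In jaz9-1, 0.0547% of all genes were higher and 0.00995% lower. There, 17 members had an unadjusted p under 0.05, as had 1367 of all 20109 tested genes. In Col-0 the lowest adjusted p was 0.119, for RBCS3B, whose log2 difference of 0.40 had an interval from 0.24 to 0.57. The counts became 3 without Col-0 2e replicate 1, 1 without Col-0 2e replicate 3 and 2 without jaz9-1 2e replicate 2. For LHCB1.4 the difference was -0.10 in Col-0 (interval -0.40 to 0.21) and 0.05 in jaz9-1 (interval -0.25 to 0.36).

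The genotype difference in a response passed for no member with 2e or with 12. For 2e, 0% of all tested genes were called higher and 0% lower, and DESeq2 called no member. An unadjusted p under 0.05 was seen for 1 member and for 871 of all 20109 tested genes. For 12, 0% of all genes were higher and 0.00497% lower, and DESeq2 called 2 members. An unadjusted p under 0.05 was seen for 17 members and for 1181 of all 20109 tested genes. The median difference with 12 was 0.20 over the members, 42 of which were positive. The count with 12 became 2 without Col-0 mock replicate 3 and 2 without Col-0 12 replicate 2. With 2 the median was 0.16, and 42 of 47 members were positive, of which RBCS3B alone passed. Over all 20109 tested genes the median was -0.009 with 2 and -0.006 with 12, and 9886 and 9887 were positive. The differences with 2 and with 12 use the same mock libraries of both genotypes, so their signs are not separate observations.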

How the data were processed

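Seedling libraries were sequenced in 8 groups of 3, grouped by the genotype and treatment in the labels. The authors trimmed reads with Trimmomatic, aligned them with HISAT2 and counted primary alignments per gene, over the whole gene and on 1 strand, with featureCounts, where a read over more than 1 gene counts for each. The deposited counts were used as they are, and the authors' second table, normalized by size factors from DESeq2, was not used. The analysis used edgeR 4.0.16 in R 4.3.3 (filterByExpr, TMM, quasi-likelihood F-test, 1 coefficient per group over 24 libraries) and limma 3.58.1, with Benjamini-Hochberg adjustment over 20109 genes and a threshold of FDR 0.1. The common biological coefficient of variation was 0.1859. Intervals are 95% intervals of the fit. Organelle genes took 0.9453% to 2.198% of a library's counts and were kept.

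The members and lists were chosen with earlier results of these data known. Named genes were the 4 RBCS genes, in each other group the 2 members with the lowest FDR between the genotypes with mock and the 2 with the lowest FDR for 2 in Col-0, members called where 5 or fewer were, and members with a called genotype difference in a response. Lists gave their 2 genes with the lowest FDR. Other members, GLK1, CCA1 in each treatment and TOC1 among the clock genes were chosen after their values were seen, where the rule does not name them. Alternatives were DESeq2 1.42.0, RLE factors, scaling by nuclear genes other than the members, no count filter, a replicate block, the compared groups alone, FDR 0.05, a 2.5-fold minimum and each library left out. The code was tested on simulated counts. Upstream sequences came from RefSeq TAIR10.1.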

Additional observations from a re-analysis of the deposited data

Results flagged for a closer look

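The response of RBCS3B to 2 differed between the genotypes by 0.533 on the log2 scale (adjusted p = 0.0338, quasi-likelihood F-test of edgeR), by a test of the difference itself. On the TMM scale, RBCS3B was lower with 2 than with mock in 3 of 3 Col-0 libraries and higher in 3 of 3 jaz9-1 libraries. Over the alternatives other than a 2.5-fold minimum, its value ran from 0.387 to 0.615 and its adjusted p reached 0.109. It shares 12.1% of its 100-base exon windows with RBCS1B, whose responses to 2 differed by 0.33 without passing (adjusted p = 0.292).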

How the results depend on the processing

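Of 218 called values of single members, 129 passed under every alternative when a 2.5-fold minimum was set aside. With that minimum included, 2489 of 3058 recomputed values kept their call, 569 lost it and 0 changed direction. Of 152 counts recomputed under alternatives other than left-out libraries, 42 moved by over 1.5 times, and the cause was not tested. DESeq2 gave 1 for 2e against 12 in each genotype and 2 for the genotype difference with 12. RLE factors and scaling by nuclear genes moved no count by that much.

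With no count filter, 4 members were called for 2e and 17 for 12 in Col-0, 10 for 2e and 6 for 12 in jaz9-1, 6 and 5 for 2e against 12 in Col-0 and jaz9-1, and 5, 1 and 3 for the genotype differences with 2, 2e and 12. With the compared groups alone, 27, 3 and 27 were called for 2, 2e and 12 in Col-0, 15, 4 and 3 in jaz9-1, 17 and 8 between the genotypes with mock and with 2, 1 for 2e against 12 in Col-0, 16 for 12 against 2 in jaz9-1 and 2 for the genotype difference with 12. At FDR 0.05, 0 were called for 2e in jaz9-1 and 10 between the genotypes with 12. A 2.5-fold minimum left 0 members for 2 and for 12 in Col-0, for 2 and 2e in jaz9-1, between the genotypes with mock, 2, 2e and 12, for 2e and 12 against 2 in jaz9-1 and for the genotype difference with 2, and 1 each for 2e and for 12 against 2 in Col-0.

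With the replicate block, 2 were called for 2e and 1 for 12 in jaz9-1, 1 for 2e against 12 in Col-0 and 2 for the genotype difference with 12. Deviations of same-numbered libraries correlated between -0.0514 and 0.0646, so the numbers were not taken as pairs.

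Without 1 library, the counts ran from 11 to 13 (2), 0 to 0 (2e) and 2 to 13 (12) in Col-0, 17 to 30, 0 to 4 and 0 to 1 in jaz9-1, and 5 to 10, 11 to 23, 11 to 19 and 8 to 14 between the genotypes with mock, 2, 2e and 12. They ran from 11 to 16 (2e against 2), 19 to 31 (12 against 2) and 0 to 3 (2e against 12) in Col-0, from 33 to 42, 17 to 34 and 0 to 2 in jaz9-1, and from 0 to 5, 0 to 0 and 0 to 2 for the genotype differences with 2, 2e and 12. Depth was lowest for LHCB7, whose lowest count in a library was 23.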
